A study of Macaca fascicularis with 6 samples.

Results

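EGR1, MYC and 8 further immediate early genes (FOS, FOSB, JUN, JUNB, IER2, IER3, DUSP1 and KLF6) were examined in the liver of cynomolgus macaques (Macaca fascicularis) given an LXR ligand or vehicle. They are 10 of 19775 genes named by a probe set with a single symbol. They were chosen by their ligand against vehicle values in these same arrays, together with known membership of the class, so their differences between the groups are a description and carry no test. The study comprised 3 animals given the ligand and 3 given vehicle, each on an array of its own, and its design asks how the liver transcriptome differs between them. Ligands of the liver X receptor (LXR), a nuclear receptor that senses oxidised cholesterol, switch on genes of sterol export and fatty acid synthesis. The ligand, its dose, the length of treatment, and the age and sex of the animals were not given in the sources used here, and the letters GW in the titles of the ligand arrays are not explained there.

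Immediate early genes are transcribed within minutes of a stimulus from factors already present in the cell, without new protein synthesis. Growth factors, cytokines, stress and injury act on them largely through MAP kinases, which activate serum response factor with its ELK partners and CREB at their promoters, and the resulting mRNAs are short-lived. In liver they are known for their rapid rise after partial hepatectomy, in the acute phase response and when tissue is handled. EGR1 is a zinc finger transcription factor, MYC drives growth and ribosome production, and FOS and JUN proteins pair to form the AP-1 factor.

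Signals are MAS5 intensities in arbitrary units, read by probe sets designed against human transcripts. A sequence difference between human and macaque can lower a probe set's signal, so signals are compared between arrays for 1 probe set and never between probe sets. Median signal was 129 to 139 on ligand arrays and 111 to 139 on vehicle arrays. Ligand array 1 was the farthest from the rest. Its score on principal component 1, which held 23.0% of the variance, was -89.8, against 0.632 to 36.8 for the other 5 arrays. The 3' to 5' ratio of the GAPDH and ACTB control probe sets, a sign of RNA integrity, averaged 2.31 ± 0.62 on the log2 scale on ligand arrays and 1.95 ± 0.41 on vehicle arrays (SD, n = 3 each), and an exact two-sided permutation test gave p = 0.6, where 3 against 3 allows no p under 0.1. Of the 27304 probe sets tested, 0 (0%) passed limma's adjusted p at 0.05 and 1523 had an unadjusted p under 0.05.

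The 10 genes were represented by 21 probe sets, of which 18 were bright enough to be tested, covering 8 genes. The single probe sets of FOS and FOSB and the dimmest probe set of DUSP1 were too dim. By the brightest probe set, 8 of the 10 genes had a lower mean with the ligand and 2 a higher one, and a median log2 difference, ligand minus vehicle, of -0.31. Across the 13349 genes tested, by the brightest tested probe set, 49.7% were lower and the median was 0.0027. In 4 of the 10 genes, EGR1, MYC, JUN and JUNB, all 3 ligand arrays lay below all 3 vehicle arrays, and in 0 did they lie above. Among all tested genes, 5.21% had ligand arrays wholly below and 6.21% wholly above, but since this contrast chose the members, nothing is read from their count. Without vehicle array 1, 6 of the 10 were lower and the median was -0.12. Leaving out an array cannot make separate groups overlap, so the same 4 genes stayed apart by construction. The plot of signals by array shows all 10 genes.

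**Figure D1:**
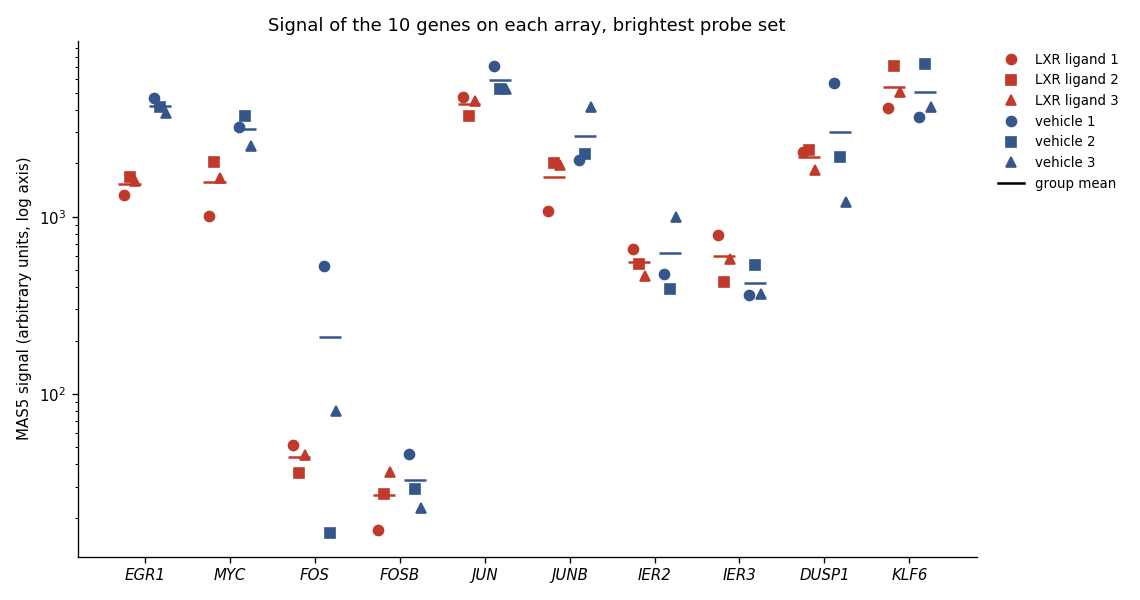
MAS5 signal in arbitrary units on a log axis for the brightest probe set of each of the 10 genes, with LXR ligand arrays in red at the left and vehicle arrays in blue at the right of each pair, a symbol for each array number and a line for each group mean. EGR1, MYC, JUN and JUNB have every ligand array below every vehicle array, whereas the vehicle arrays of FOS run from 16.4 to 531.

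EGR1 had the largest log2 difference of the 10 genes. Its brightest probe set gave signals of 1333, 1685 and 1591 on ligand arrays 1 to 3, against 4661, 4169.9 and 3853 on vehicle arrays 1 to 3. The groups lay far apart, and the highest ligand array was below the lowest vehicle array by a gap wider than either group's own range. The means were 1536 ± 182 with the ligand and 4228 ± 408 with vehicle (SD, n = 3 each), a log2 difference of -1.45 ± 0.20 (SE), or 2.74-fold lower with the ligand. All fold changes between the groups are on the scale of log2(signal + 16), which understates the change of dim probe sets. Of all tested probe sets, 143 (0.524%) had a log2 difference at or below that of EGR1.

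A second EGR1 probe set showed nearly the same difference. It gave 355, 479 and 484 on the ligand arrays, against 1388, 1179 and 1148 on the vehicle arrays, a log2 difference of -1.47 ± 0.24 (SE). The third, the dimmest, gave 273, 446 and 414 on the ligand arrays, against 435, 775 and 919 on the vehicle arrays. There ligand array 2 lay above vehicle array 1, so the groups overlapped, and the log2 difference was -0.85 ± 0.34 (SE). The 3 probe sets read the same transcript in the same RNA, so they are not independent of each other. Leaving out each array in turn moved the log2 difference of the brightest one only between -1.52, without ligand array 2, and -1.36, without ligand array 1.

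On its brightest probe set EGR1 also varied little among animals of a group. The highest ligand array was 1.26 times the lowest, and the highest vehicle array 1.21 times the lowest. Over all tested probe sets, dim ones included, the median of this ratio was 1.64 in each group. The second EGR1 probe set had ratios of 1.36 with the ligand and 1.21 with vehicle. The dimmest had 1.63 with the ligand and 2.12 with vehicle. EGR1 is known as one of the most readily induced genes of the class, and in these livers its level was thus steady within each group on its brightest probe set.

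MYC, which partners with MAX to drive genes of ribosome production and nucleotide synthesis, had 1 probe set. Its signals were 1012, 2029 and 1651 on ligand arrays 1 to 3, against 3216, 3686 and 2500.3 on vehicle arrays 1 to 3. All ligand arrays lay below all vehicle arrays, ligand array 1 being the lowest of the 6. The means were 1564 ± 514 with the ligand and 3134 ± 597 with vehicle (SD, n = 3 each), a log2 difference of -1.03 ± 0.28 (SE) and 2.05-fold lower with the ligand. Without ligand array 1 the log2 difference was -0.75, and without ligand array 2 it was -1.25. Of all tested probe sets, 549 (2.01%) had a log2 difference at or below that of MYC.

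Of the 4 AP-1 genes, all had lower means with the ligand, JUN and JUNB with groups that did not overlap and the dim FOS and FOSB with groups that did. JUN, the main DNA-binding partner in AP-1, had 4 tested probe sets, all with lower means with the ligand. The brightest gave 4719.7, 3717 and 4524 on ligand arrays 1 to 3, against 7105, 5285 and 5286 on vehicle arrays 1 to 3. The groups did not overlap, vehicle array 1 was the highest, and the log2 difference was -0.44 ± 0.20 (SE). This probe set carries the platform's mark for probes that may also bind other transcripts. Another JUN probe set, without that mark, gave 523, 516 and 397 on the ligand arrays, against 856, 641 and 691 on the vehicle arrays, again without overlap, with a log2 difference of -0.59 ± 0.26 (SE). The other 2 JUN probe sets had overlapping groups and log2 differences of -0.33 ± 0.30 and -0.12 ± 0.31 (SE). Without vehicle array 1 the brightest JUN probe set had a log2 difference of -0.30.

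JUNB, a JUN relative that is a weaker activator in AP-1, gave 1073, 2025 and 1954 on ligand arrays 1 to 3, against 2090.5, 2252 and 4188 on vehicle arrays 1 to 3. The groups did not overlap, but ligand array 2 and vehicle array 1 almost met, and the extremes came from ligand array 1 and vehicle array 3. The log2 difference was -0.73 ± 0.33 (SE). It was -0.44 without ligand array 1 and -0.42 without vehicle array 3.

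FOS, the partner of JUN in the classical AP-1 dimer, gave 51.4, 35.9 and 45.0 on ligand arrays 1 to 3, against 531, 16.4 and 80.0 on vehicle arrays 1 to 3. In the vehicle group array 1 alone was high and vehicle array 2 was the lowest of the 6, so the groups overlapped. The log2 difference of -0.999 turned to 0.099 without vehicle array 1, and without vehicle array 2 it was -1.94, with groups that no longer overlapped. FOSB, a close relative of FOS, gave 17.0, 27.2 and 36.0 on the ligand arrays, against 46.1, 29.0 and 22.6 on the vehicle arrays. These signals were low and overlapped, with a log2 difference of -0.18, which was 0.011 when vehicle array 1 was left out and -0.34 when ligand array 3 was. With no detection calls used, low FOSB signals cannot be told from the absence of the transcript.

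DUSP1, a phosphatase that switches MAP kinases off again, gave 2317, 2388 and 1845 on ligand arrays 1 to 3, against 5688, 2173 and 1207 on vehicle arrays 1 to 3. The vehicle animals spanned the ligand animals on both sides. The log2 difference was -0.18 ± 0.45 (SE), and it was 0.42 without vehicle array 1 and -0.69 without vehicle array 3. The other tested DUSP1 probe set gave -0.12 ± 0.35 (SE), with vehicle array 2 the highest of the vehicle arrays. The untested one ran from 42.3 to 173 on the ligand arrays and from 20.5 to 228 on the vehicle arrays. It had a log2 difference of 0.11.

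IER2, a small nuclear protein induced by growth factors, gave 658, 544 and 464 on ligand arrays 1 to 3, against 475, 391 and 1003 on vehicle arrays 1 to 3. Vehicle array 3 was the highest and vehicle array 2 the lowest of the 6, and the log2 difference was -0.056 ± 0.35 (SE), and leaving out vehicle array 3 gave 0.34, leaving out vehicle array 2 -0.32. IER3, a stress-induced regulator of cell survival, was a member with a higher mean with the ligand. Its signals were 785, 431 and 576 on the ligand arrays, against 361, 537 and 364 on the vehicle arrays, with overlapping groups and a log2 difference of 0.47 ± 0.31 (SE). Leaving out ligand array 1 gave 0.26.

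KLF6, a zinc finger factor induced in injured liver, was the other member with a higher mean. Its brightest probe set gave 4121, 7080.2 and 5042 on ligand arrays 1 to 3, against 3648, 7282 and 4169.97 on vehicle arrays 1 to 3. The groups overlapped almost fully, with a log2 difference of 0.14 ± 0.29 (SE), and leaving out ligand array 2 gave -0.075, leaving out vehicle array 2 0.44. The 4 further probe sets also overlapped, with log2 differences of 0.10 to 0.32. The plot of log2 differences by probe set gives all 18 tested ones, of which 12 were lower and 6 higher with the ligand. In 6 of the 18 the ligand arrays lay wholly below the vehicle arrays, where 4.96% of all tested probe sets did.

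**Figure D2:**
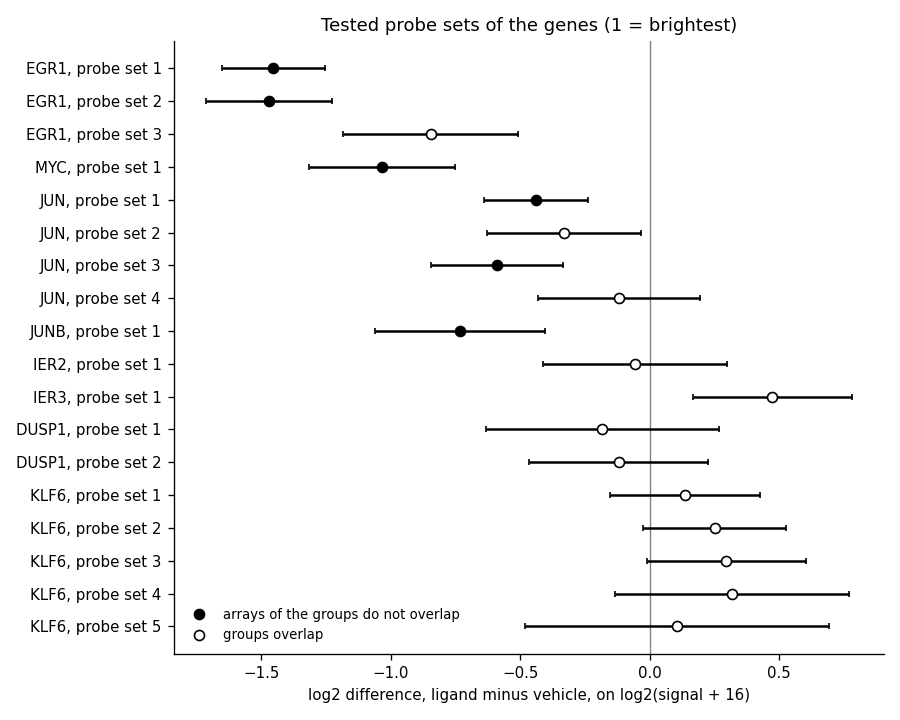
Log2 difference, ligand minus vehicle, on log2(signal + 16) for the 18 tested probe sets of 8 genes, with probe set 1 the brightest of its gene and bars of 1 SE from limma. Filled points mark the 6 probe sets whose arrays do not overlap between the groups, which belong to EGR1, MYC, JUN and JUNB.

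Within the groups the 10 genes did not follow a common order of animals. Among ligand arrays, array 1 was the lowest for 5 genes and the highest for 4. Among vehicle arrays, array 1 was the highest for 5 genes, array 2 for 3 and array 3 for 2. The 5 genes highest on vehicle array 1 were EGR1, FOS, FOSB, JUN and DUSP1. On vehicle array 3, JUNB and IER2 were highest while EGR1, MYC, FOSB and DUSP1 were lowest. The heat map of centred values shows that FOS and DUSP1 stood out on vehicle array 1, at 2.70 and 1.29 above their means over the 6 arrays on the log2 scale.

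**Figure D3:**
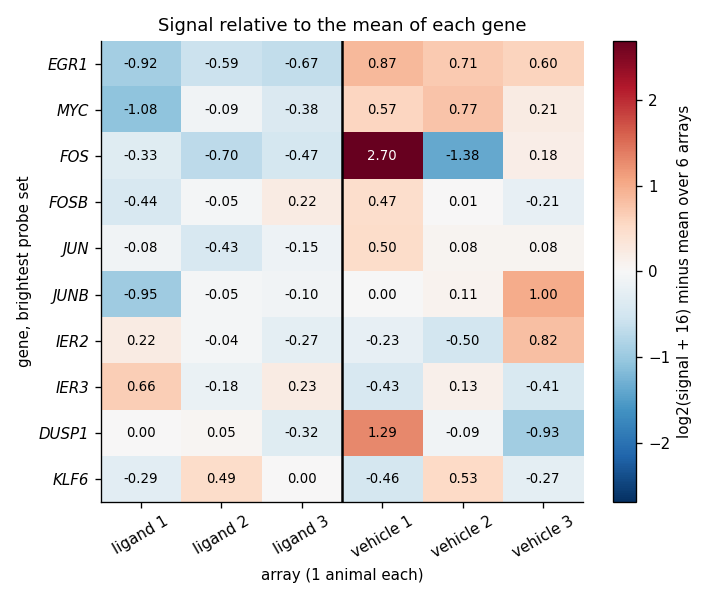
Colour map of log2(signal + 16) minus each gene's mean over the 6 arrays, with a row for each of the 10 genes and a column for each array, ligand arrays left of vehicle arrays. Rows EGR1 and MYC are negative on all ligand arrays and positive on all vehicle arrays, while FOS ranges from -1.38 to 2.70 within the vehicle group.

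Vehicle array 1 also had a far higher haemoglobin signal. HBB, the beta chain of haemoglobin, gave 865, 609 and 599.7 on ligand arrays 1 to 3, against 11085, 1255 and 828 on vehicle arrays 1 to 3. The 3 measured markers of red blood cells and platelets summed to 913 to 1359 on ligand arrays and 1171 to 11629 on vehicle arrays, and the lowest signal of any of them was 40.0. Its part in the high FOS and DUSP1 values of that array was not tested. The EGR1 difference without that array was -1.38 and that of MYC -1.01.

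A further 46 immediate early genes in 2 lists followed, of which 40 were measured. In limma's test 0 of the 40 passed the adjusted p over all probe sets. At an unadjusted p under 0.05, 4 were lower and 1 was higher with the ligand, where 6.12% of all tested genes had such a p in either direction. Of the 40, 26 had a lower and 14 a higher mean, with a median log2 difference of -0.14 beside 0.0027 over all tested genes. The groups did not overlap in 7 of the 40, with the ligand arrays below in 6 and above in 1. Over all tested genes, 5.21% had ligand arrays wholly below and 6.21% wholly above.

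Among the 18 measured transcription factors of these lists, 10 had lower and 8 higher means, and the median was -0.12. JUND, the JUN relative that cells hold at a steady level, gave 20968, 18099.9 and 16866 on the ligand arrays, against 23644, 29219 and 24091 on the vehicle arrays. All ligand arrays were lower, with a log2 difference of -0.46 ± 0.17 (SE) and limma adjusted p = 0.840. ID2, an inhibitor of helix-loop-helix factors, had a log2 difference of -0.67 ± 0.27 (SE), and BHLHE40, a repressor that also acts in the clock, -0.95 ± 0.44 (SE), at limma adjusted p = 0.873 and 0.880. Without vehicle array 1 ID2 was at -0.42, and without ligand array 2 BHLHE40 was at -0.55. ID3, a close relative of ID2, went the other way. It gave 1178, 1094 and 1149 on the ligand arrays, against 522, 272 and 763 on the vehicle arrays, without overlap, with a log2 difference of 1.23 ± 0.34 (SE) and limma adjusted p = 0.825.

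Among the 22 measured signalling and RNA decay genes, 16 had lower and 6 higher means, with a median of -0.14. CCN2, a matrix-associated growth regulator that serum response factor and YAP control, gave 165, 190.04 and 68.7 on the ligand arrays, against 349, 391.7 and 217 on the vehicle arrays. Here too the ligand arrays were all lower, with a log2 difference of -1.15 ± 0.46 (SE) and limma adjusted p = 0.873. It was -0.76 without ligand array 3. Its relative CCN1 had a log2 difference of -1.07 ± 0.52 (SE), with overlapping groups, and -0.57 without ligand array 1. TRIB1, a pseudokinase that lowers hepatic lipogenesis in mice, had a log2 difference of -0.51 ± 0.22 (SE) without overlap, and SIK1, a kinase induced by cAMP, -0.54 ± 0.31 (SE) with overlap. The other tested SIK1 probe set had the opposite sign, and the average of both SIK1 probe sets was -0.062. The limma adjusted p of these 3 genes was 0.880 to 0.890.

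Upstream of the immediate early genes, 15 of 20 listed genes of growth factor and MAP kinase signalling were measured, 9 with higher and 6 with lower means, and their median was 0.054. None passed in limma. Beside 6.12% of all tested genes, 1 of the 15 had an unadjusted p under 0.05. That gene was RPS6KA3, the kinase RSK2 downstream of ERK, with 6126, 4738 and 4823 on the ligand arrays, against 4333, 2755 and 3079 on the vehicle arrays. Every ligand array was higher, and the log2 difference was 0.64 ± 0.22 (SE), at limma adjusted p = 0.829. ELK3 and ELK1, partners of serum response factor, had log2 differences of 0.60 ± 0.31 and 0.32 ± 0.26 (SE), with overlap only in ELK1, whose other tested probe set had the opposite sign. EGFR, the epidermal growth factor receptor, had -0.69 ± 0.32 (SE). Of its 7 other tested probe sets, 4 had the same direction, and the average over all was -0.27.

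The feedback inhibitors of MAP kinase signalling, which are themselves induced by the pathway, had mostly higher means with the ligand. Of 13 listed, 11 were measured, 9 had higher and 2 lower means, and their median log2 difference was 0.34. None passed in limma. Beside 6.12% of all tested genes, 2 of the 11 had an unadjusted p under 0.05, both higher with the ligand. DUSP6, the ERK phosphatase, gave 7951, 4901 and 7375 on the ligand arrays, against 5461, 3051 and 3649 on the vehicle arrays. Ligand array 2 lay below vehicle array 1, and the log2 difference was 0.74 ± 0.26 (SE) at limma adjusted p = 0.829, in the same direction on its 2 other tested probe sets. SPRY4, an inhibitor of receptor signalling to ERK, had 0.82 ± 0.31 (SE) on that scale at limma adjusted p = 0.859. SPRED2, an inhibitor of RAF activation, and ERRFI1, an inhibitor of EGFR, had 0.50 ± 0.28 and 0.50 ± 0.28 (SE), and ERRFI1 was at 0.24 without ligand array 2. EGR1 and DUSP6 are both known as ERK-responsive genes, and their mean differences between the groups had opposite signs, although the groups overlapped for DUSP6. ERK activity was not measured, and how the differences of EGR1 and DUSP6 relate was not tested.

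Of 9 listed partners and corepressors of EGR1 and MYC, 7 were measured. MXI1, a repressor that competes with MYC for MAX, gave 4451, 5320.2 and 6192 on the ligand arrays, against 11579.8, 9500.6 and 7528 on the vehicle arrays. The groups did not overlap, with a log2 difference of -0.83 ± 0.21 (SE) and limma adjusted p = 0.710. NAB1, a corepressor of EGR1, had -0.20 ± 0.26 (SE), MXD1, another MAX partner, -0.13 ± 0.26 (SE), and MLX, a related dimerisation partner, -0.067 ± 0.21 (SE). For NAB1 and for MXD1 the other tested probe set had the opposite sign. With probe sets averaged, NAB1 was at -0.0066 and MXD1 at 0.019. In the list 6 genes had lower and 1 a higher mean, the median was -0.067 and none passed in limma. An unadjusted p under 0.05 was held by 1 of the 7, beside 6.12% of all tested genes.

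Of 17 listed MYC target genes, mostly of ribosome and nucleotide synthesis, 13 were measured. Among them 12 had lower and 1 a higher mean, and the median log2 difference was -0.17. The list also holds ODC1, SRM, CDK4 and LDHA, which belong to neither process, each with a lower mean. None passed in limma and 2 of the 13 had an unadjusted p under 0.05, beside 6.12% of all tested genes. NOP16, a nucleolar protein of ribosome assembly, gave 1233, 1261 and 1521 on the ligand arrays, against 2625, 1902 and 2766 on the vehicle arrays. Its ligand arrays lay below its vehicle arrays by -0.84 ± 0.23 (SE) on the log2 scale, at limma adjusted p = 0.767, and of its 2 other tested probe sets 1 had the same direction, with an average of -0.41. GART, an enzyme of purine synthesis, gave 1381, 1327 and 1268 on the ligand arrays, against 1724, 2030.5 and 2130.4 on the vehicle arrays, a log2 difference of -0.56 ± 0.20 (SE) with no overlap and limma adjusted p = 0.840. ODC1, the first enzyme of polyamine synthesis, had -0.37 ± 0.24 (SE), and LDHA, lactate dehydrogenase A, -0.36 ± 0.21 (SE), both with overlap. Without vehicle array 2 ODC1 was at -0.20, and without ligand array 3 LDHA was at -0.18.

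Lists of stress responses that share triggers with the immediate early genes gave no call in limma. All 7 measured of 10 heat shock genes had lower means with the ligand, by a median of -0.33 on the log2 scale. An unadjusted p under 0.05 was held by 1 of the 7, beside 6.12% of all tested genes. DNAJB1, a cochaperone induced by heat shock, gave 985, 949 and 1051 on the ligand arrays, against 1857, 1191 and 2029 on the vehicle arrays, a log2 difference of -0.72 ± 0.25 (SE) with no overlap and limma adjusted p = 0.829. HSPB1, a small heat shock protein, had -0.63 ± 0.36 (SE), BAG3, a cochaperone, -0.43 ± 0.37 (SE), and HSPD1, the mitochondrial chaperonin, -0.26 ± 0.16 (SE). Without ligand array 2 HSPB1 was at -0.13, and without vehicle array 1 BAG3 was at -0.055. The heat shock genes and EGR1 thus had lower means on the same 3 arrays. Unlike EGR1, the heat shock genes other than DNAJB1 had overlapping groups. Their list's summed signal also overlapped, at 101860 to 122830 on ligand arrays and 100884 to 146795 on vehicle arrays. How the heat shock genes and EGR1 relate was not tested.

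All 12 hypoxia genes were measured, 7 with higher and 5 with lower means and a median of 0.15. Beside 6.12% of all tested genes, 1 of the 12 had an unadjusted p under 0.05. That was BNIP3, a mitochondrial protein of mitophagy, at -0.59 ± 0.20 (SE) and limma adjusted p = 0.829, without overlap. VEGFA, an angiogenic growth factor, had a log2 difference of 0.36 ± 0.18 (SE), PDK1, a kinase that restrains pyruvate oxidation, -0.66 ± 0.31 (SE), and ANKRD37, a small hypoxia-induced protein, -0.47 ± 0.23 (SE). The other tested PDK1 probe set had the opposite sign, and the average of both PDK1 probe sets was -0.24. Averaging all tested probe sets of a gene put BNIP3 at -0.33 and VEGFA at 0.23. Of 11 glucocorticoid response genes 10 were measured, 2 with higher and 8 with lower means, a median of -0.10 and 0 with an unadjusted p under 0.05. ERRFI1, given above, is also on that list. TAT, an enzyme of tyrosine breakdown, had -0.18 ± 0.19 (SE), MT2A, a metallothionein, -0.17 ± 0.19 (SE), and KLF9, a glucocorticoid-induced zinc finger factor, 0.28 ± 0.39 (SE), and each of the 3 differences was smaller than its error. With their probe sets averaged, TAT was at 0.045 and KLF9 at -0.090, and MT2A was at 0.019 without ligand array 1. The plot of list members sets the 9 lists side by side.

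**Figure D4:**
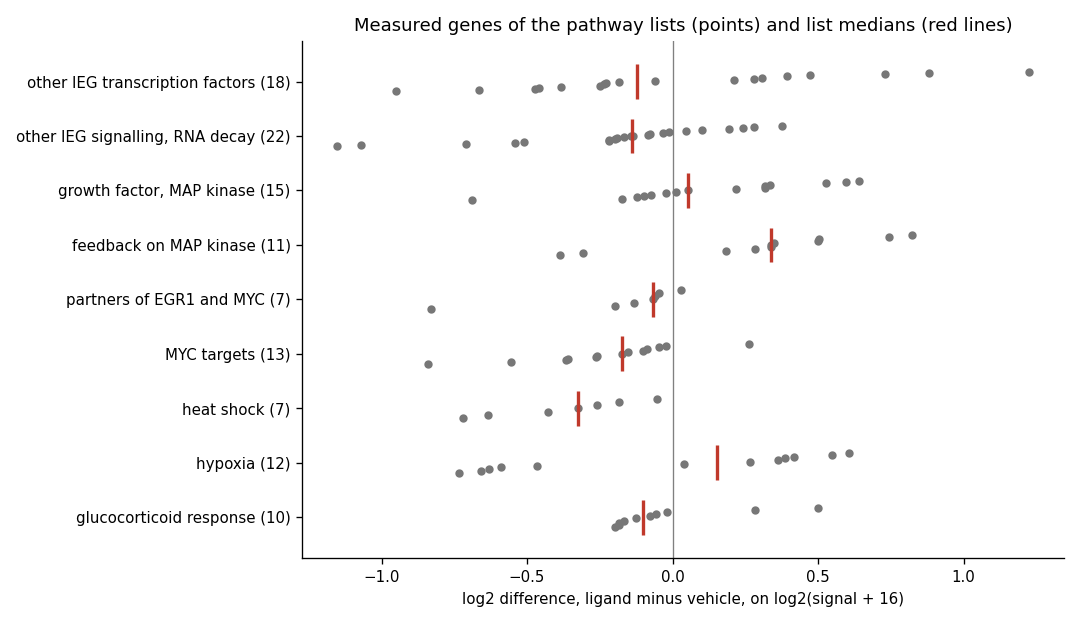
Log2 difference, ligand minus vehicle, on log2(signal + 16), with a grey point for each measured gene of the 9 pathway lists, the number measured in brackets, a red line at each list's median, and IEG standing for immediate early gene. List medians run from -0.33 for heat shock genes to 0.34 for feedback inhibitors of MAP kinase signalling, and no gene passed the adjusted test.

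The gene whose pattern over the 6 arrays was most like that of EGR1 was sought among 13348 other tested genes by the root mean square difference of log2 values, each centred on its own mean. Since EGR1 was chosen for its group difference, this is a description. The 6 closest genes that are not members were KDM8, SDHAF2, GPX3, GRM6, ACRBP and LRRC8A, at 0.16 to 0.25 log2 units, where the median over tested genes was 0.82. GPX3, a secreted glutathione peroxidase, gave 2471, 4307 and 2367 on the ligand arrays, against 7738, 8269.8 and 7417 on the vehicle arrays, a log2 difference of -1.41 ± 0.24 (SE). LRRC8A, a subunit of volume-regulated anion channels, gave 2439, 3780.3 and 3905 on the ligand arrays, against 6833, 6976 and 6556 on the vehicle arrays, but averaged with its other tested probe set its log2 difference was -0.10, against -1.04 on this one. KDM8, a hydroxylase of the Jumonji family, SDHAF2, an assembly factor of succinate dehydrogenase, GRM6, a glutamate receptor, and ACRBP, a binding protein of proacrosin, had signals of 69.2 to 193 on the ligand arrays and 205 to 409 on the vehicle arrays. The ligand means of KDM8 and ACRBP, 83.4 and 105.7, were under the filter of 129, so these genes were tested only through their vehicle arrays. In all 6 genes the ligand arrays lay below the vehicle arrays, as in EGR1, which follows from the choice by likeness.

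MYC stood 13th in likeness to EGR1 among the 13348 genes, at 0.32 log2 units. JUN lay at 0.55 and JUNB at 0.56, both closer than the median gene. The other tested members, IER2, DUSP1, KLF6 and IER3, lay at 0.87 to 1.04, farther from EGR1 than the median gene. The members were chosen partly by the group difference, which also weighs in this likeness, so nothing is read from their places.

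**Figure D5:**
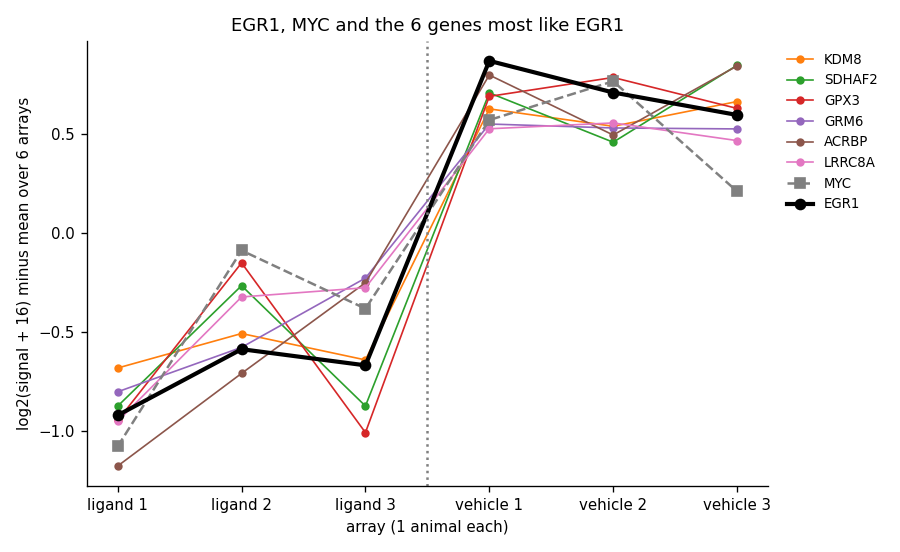
Log2(signal + 16) minus each gene's mean over the 6 arrays, for EGR1 in black, MYC in grey and the 6 closest other genes in colour, ligand arrays left of vehicle arrays, with lines that only join the points of a gene. Every gene is below 0 on the 3 ligand arrays and above 0 on the 3 vehicle arrays.

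The arrays read whole liver, in which every cell type can express immediate early genes, so fewer cells of a type and less RNA per cell cannot be told apart. The 10 measured hepatocyte markers were split evenly, 5 higher and 5 lower, with a median log2 difference of -0.00084. Their summed signal was 668671 to 757304 on ligand arrays and 645789 to 752200 on vehicle arrays, and the lowest signal of any of them was 357, so markers of the labelled tissue were present. By the naming rule these include TF, the iron carrier transferrin, with a log2 difference of -0.71 ± 0.32 (SE). Neither of the 2 other tested TF probe sets shared that sign, and the average over all tested TF probe sets, this one included, was -0.16. Also named is CPS1, an enzyme of the urea cycle, with -0.23 ± 0.22 (SE), or -0.065 without vehicle array 1.

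Sums of the markers of macrophages and of stellate cells did not overlap between the groups. All 9 measured macrophage markers of 11 listed had higher means with the ligand, led by MARCO, a scavenger receptor, at 1.23 ± 0.22 (SE) and C1QA, a complement chain, at 1.62 ± 0.34 (SE). Their summed signal was 12903 to 13924 on ligand arrays and 5680 to 8486 on vehicle arrays, none was at 0, and the median log2 difference was 0.71. Of 9 stellate cell and fibroblast markers 7 were higher, with a median of 0.28 and sums of 32689 to 45713 on ligand arrays and 17027 to 26767 on vehicle arrays. COL3A1, a fibrillar collagen, had a log2 difference of 1.12 ± 0.29 (SE), and DCN, a matrix proteoglycan, 0.62 ± 0.26 (SE), or 0.36 without vehicle array 2. These 2 genes make up most of the sum. Among the other 7, named after their values were seen, COL1A2 and RGS5 had log2 differences of 0.72 and 0.52, both with overlap. LUM, ACTA2 and LRAT had 0.28, 0.21 and 0.099, also with overlap. COL1A1, a fibrillar collagen chain, was at -0.22 without overlap while both its other tested probe sets had the opposite sign, and PDGFRB was at -0.078. None of these markers passed in limma. An unadjusted p under 0.05 was held by 5 of the 9 macrophage and 3 of the 9 stellate markers, beside 6.12% of all tested genes. The part of these markers in the EGR1 and MYC differences was not tested.

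The sums of the remaining cell type lists overlapped between the groups, those of the endothelial list only with VWF included. Of 11 endothelial markers 10 were higher, with a median of 0.45 and sums of 12421 to 16423 on ligand arrays and 11607 to 14168 on vehicle arrays. At an unadjusted p under 0.05, 3 of the 11 were higher and 1 was lower, beside 6.12% of all tested genes in either direction. LYVE1, a receptor of sinusoidal endothelium, had 1.02 ± 0.34 (SE), while VWF, a clotting factor of endothelium, had -3.39 ± 0.47 (SE) at limma adjusted p = 0.319. VWF gave 157, 156 and 377 on the ligand arrays, against 4667, 2129 and 1340 on the vehicle arrays. These VWF signals are included in the endothelial sums that overlap. With VWF left out, a choice made after its values were seen, every ligand sum lay above every vehicle sum. The medians were 0.21 over 6 neutrophil and monocyte markers, 0.13 over 5 T, NK and B cell markers, -0.37 over 3 bile duct markers and 0.37 over 3 red blood cell and platelet markers, and none passed in limma. In these lists LYZ, a lysozyme of myeloid cells, had a log2 difference of 0.95 ± 0.43 (SE), S100A9, a neutrophil calcium-binding protein, -0.69 ± 0.56 (SE), MS4A1 of B cells 0.90 ± 0.68 (SE), CD79A of the B cell receptor 0.30 ± 0.28 (SE), KRT7, a bile duct keratin, -0.64 ± 0.45 (SE), EPCAM, an epithelial adhesion molecule, 0.89 ± 0.54 (SE), HBB -1.71 ± 0.76 (SE), and ITGA2B, a platelet integrin, 0.61 ± 0.74 (SE). Single arrays weighed on these: HBB was at -0.57 without vehicle array 1, MS4A1 at 0.17 without vehicle array 2, and S100A9 at -0.29 and LYZ at 0.47 without ligand array 3. The other tested KRT7 probe set had the opposite sign, and the average of both KRT7 probe sets was -0.20.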

How the data were processed

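Biotin-labelled total RNA from the liver of 6 macaques had been read on Affymetrix arrays, with an array for each animal, per the labels. The authors deposited each intensity as a MAS5 signal, named so in the submitters' processing notes, with no log taken, and with version, scaling target and filters not given in the sources used here. Their trimmed mean, with 2% of probe sets left out at each end, was 500.07 to 500.08 on every array. Detection calls were not used. Of 54675 probe sets, 41097 had 1 gene symbol in the platform annotation, 1801 several and 11777 none, and only those with 1 symbol were named. All 10 member symbols also occur in the macaque annotation of assembly T2T-MFA8v1.1, used for names only.

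Signals were transformed to log2(signal + 16), with the deposited scaling kept. Of the probe sets other than the 62 controls, the 27304 whose mean signal over the 6 arrays reached the median of all means, 129, were tested two-sided across all genes with lmFit and eBayes with an intensity trend (limma 3.58.1, R 4.3.3). The adjustment was Benjamini-Hochberg with a threshold of 0.05. A gene was represented by its brightest tested probe set. The members were described, not tested, since they had been picked on this contrast. Figures used Python 3.11.15 and matplotlib 3.10.9.

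The members, 9 pathway lists and 8 cell type lists were chosen with earlier results of these data known. The naming rule took every member probe set, up to 4 genes of each pathway list and 2 of each cell type list by smallest p, and the 6 genes most like EGR1. Sets were described by counts and medians. Alternatives were other pseudocounts (1 and 64), scalings, filters and spread models, averaging a gene's probe sets, the replicate number as a block, and leaving out each array. The number of arrays limits the precision of every value.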

Additional observations from a re-analysis of the deposited data

How the results depend on the processing

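Under 16 alternatives the log2 difference of EGR1 was between -1.52 and -1.26 and that of MYC between -1.25 and -0.75. For the 4 members whose groups did not overlap, leaving out an array or changing the pseudocount could not turn the sign. Other filters and spread models used the same values and left these differences unchanged. The median log2 difference of the members was -0.46 to -0.12 when each array was left out, lowest without vehicle replicate 3 and highest without vehicle replicate 1, and -0.36 to -0.26 under the other 10 alternatives. The replicate numbers did not pair the arrays, with correlations of same-numbered deviations of 0.040, -0.031 and 0.070. With the replicate block 0 probe sets passed. The block cannot alter a mean difference in this balanced design, so EGR1 stayed at -1.45. In limma 0 probe sets passed under every other alternative, and leaving out single arrays gave 0 to 1, the single one being SREBF1 without ligand replicate 2 and ACAA2 without vehicle replicate 2, genes chosen after their values were seen. Of 57 named genes that are not members, 0 of 901 values under alternatives passed and 8 changed sign. With a gene's probe sets averaged these were ELK1 at -0.077, MXD1 at 0.019, TAT at 0.045 and KLF9 at -0.090. Leaving out single arrays gave a range of -0.34 to 0.019 for MT2A, positive without ligand replicate 1, -0.064 to 0.84 for KLF9, negative without ligand replicate 2, -0.30 to 0.095 for MXD1 and -0.0045 to 1.25 for ITGA2B, both turned without vehicle replicate 3. The cause was not tested. Signs of FOS, FOSB, DUSP1, IER2 and KLF6 also turned when 1 array was left out. The RNA quality difference was 0.20 for GAPDH alone, 0.52 for ACTB alone, and 0.0014 to 0.57 when each array was left out, nearly gone without ligand replicate 3. With 3 animals a group and no detection calls, small changes and dim genes such as FOSB are beyond these data.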
